A study of Danio rerio with 11 samples.

Results

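The genes cyba, cybb and rac2, which encode the membrane-bound pair of the phagocyte NADPH oxidase and a small GTPase that switches it on, were followed in brain RNA of zebrafish with mutations in the receptors for colony-stimulating factor 1. They were taken by symbol, as parts of 1 enzyme, with earlier results of these data known. They are 3 of 16536 genes listed with CPM (reads per 1000000 reads of a library, scaled between libraries). The table gives them as ENSDARG00000018283 (cyba), ENSDARG00000056615 (cybb) and ENSDARG00000038010 (rac2). Whole brains of adult fish of about 8 months gave 11 libraries in 4 groups: 2 of wild type fish, called control, 3 of csf1ra-/- fish, called single mutant, 3 of csf1ra-/-;b+/- fish, called csf1rb-heterozygous mutant, and 3 of csf1ra-/-;b-/- fish, called double mutant. All fish, the control included, were of the strain TLF x AB and of the line mpeg1-GFP, in which the promoter of a macrophage gene drives a fluorescent protein. The genotypes are those of the whole fish, so other tissues carried the mutations too. The lesion of each allele is not stated in the labels. The csf1ra and csf1rb genes encode the zebrafish receptors for colony-stimulating factor 1 and interleukin 34, on which macrophages and microglia, the macrophages of the brain, depend.

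The phagocyte NADPH oxidase passes electrons from NADPH inside the cell across a membrane to oxygen, and so makes superoxide, from which hydrogen peroxide and other oxidants form. Its catalytic core is the protein encoded by cybb, held stable in the membrane by its partner, the product of cyba. The core is idle until cytosolic subunits, among them those encoded by ncf1 and ncf4, and a GTP-bound Rac protein, in mammalian neutrophils Rac2, join it. In humans, loss of the core or of a cytosolic subunit causes chronic granulomatous disease, in which phagocytes fail to kill certain microbes. In the mammalian brain the enzyme is best known from microglia, and neutrophils carry it in blood. The cyba product also serves other members of the NADPH oxidase family, while rac2 is a Rac gene of blood-forming cells that also acts on the cytoskeleton of moving leukocytes.

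The libraries held 12.8 to 15.3 M reads, and 1 CPM stood for 12.3 to 15.7 reads. The targeted genes were lower in double mutants than in control: csf1ra had 7.33 and 9.66 CPM in the control libraries and at most 0.602 CPM in double mutants, and csf1rb had 13.6 and 21.6 CPM in the control libraries and at most 2.52 CPM in double mutants. The csf1rb-heterozygous mutants had 3.83, 1.60 and 3.63 CPM of csf1rb, which overlapped the 1.97, 2.52 and 2.08 CPM of double mutants, so csf1rb does not separate these groups. Among single mutants, replicate 3 kept 5.10 CPM of csf1ra, against 1.62 and 0.952 CPM in the other two. All 16 brain genes looked up, of neurons, astroglia and oligodendrocytes, were listed, and their summed CPM in mutants was 73.96% to 86.8% of the control mean. The myelin gene mbpa made up much of that sum, with 6456 and 7624 CPM in the control libraries and 3625 to 4921 CPM in mutants, while the list's median log2 fold changes against control were -0.17 (single), -0.10 (csf1rb-heterozygous) and -0.17 (double). On the first principal component, which held 26.9% of the variance, the 3 libraries numbered 2 in their sample descriptions lay at 19.4 to 39.8 and the others at -30.6 to 6.63. No control library bears that number. The labels do not say that the libraries of a group come from separate fish, so p-values measure the spread between these libraries, which may be technical.

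The catalytic subunit gene cybb fell in double mutants against each of the other 3 groups. CPM is not corrected for gene length, so levels are compared between groups and not between genes. It had 25.4 and 26.2 CPM in the control libraries. Single mutants had 25.8, 21.2 and 23.2 CPM. The csf1rb-heterozygous mutants had 27.9, 28.7 and 25.03 CPM. Double mutants had 9.02, 11.4 and 12.99 CPM, from 142, 159 and 194 reads. All 3 double mutant libraries were lower than each of the other 8 libraries, while the control, single mutant and csf1rb-heterozygous values overlapped. Group means were 25.8 ± 0.609 (SD, n = 2) in control, 23.4 ± 2.32 (SD, n = 3) in single mutant, 27.2 ± 1.91 (SD, n = 3) in csf1rb-heterozygous mutant and 11.1 ± 2.00 (SD, n = 3) in double mutant brains, so double mutants held 43.2% of the control mean.

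**Figure D1:**
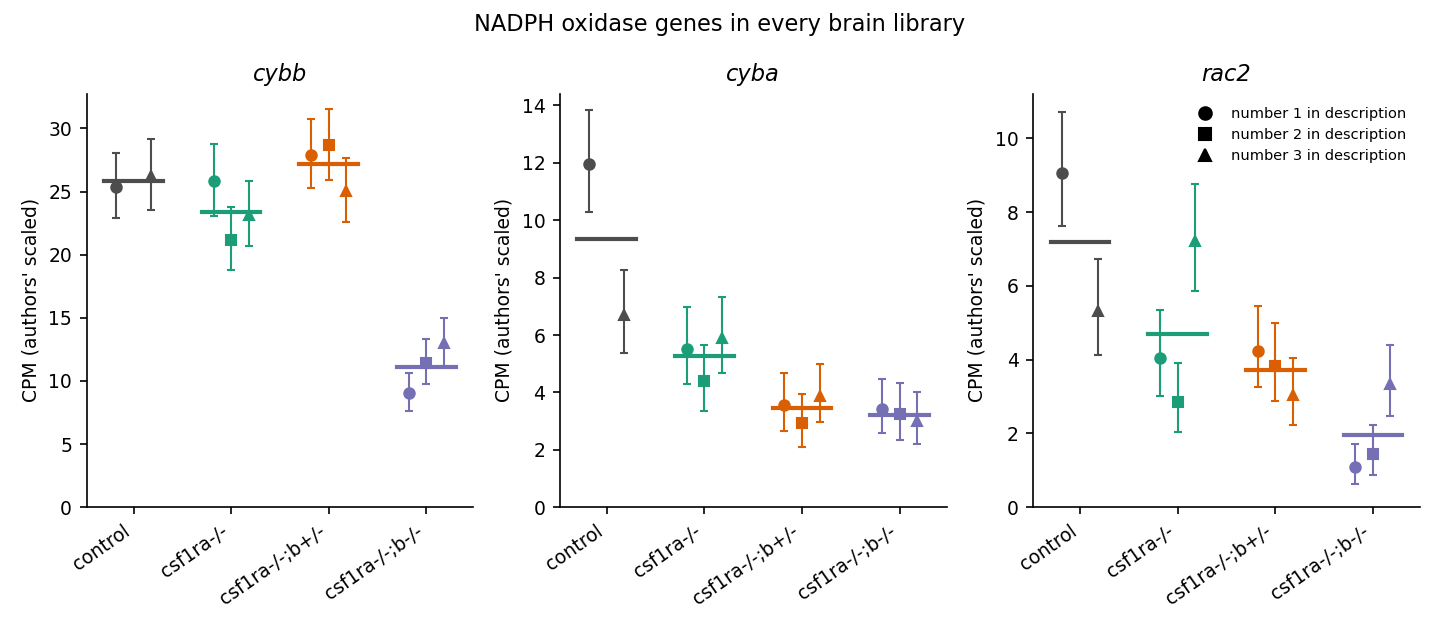
CPM of cyba, cybb and rac2 in each of the 11 libraries by genotype, on linear axes that start at 0. Points are libraries, shaped by the number in the sample description, with exact Poisson 95% intervals that cover counting error only, and lines are group means. The 3 double mutant libraries have 9.02 to 12.99 CPM of cybb, and the other 8 libraries 21.2 to 28.7.

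Differences are given as log2 fold changes of CPM + 1 from limma's moderated test, fitted over all 4 groups and adjusted over all 16536 genes by the Benjamini-Hochberg method, and a gene is said to have fallen or risen where the adjusted p was under 0.05. In double mutants cybb fell by 1.16 against control (SE 0.153, limma adjusted p = 0.00465). The gene fell by 1.01 against single mutants (SE 0.137, limma adjusted p = 0.00580). It fell by 1.23 against csf1rb-heterozygous mutants (SE 0.137, limma adjusted p = 0.00440). Without single mutant replicate 3, the library with 5.10 CPM of csf1ra, the difference from single mutants was -1.02 (limma adjusted p = 0.0340). These 3 falls share the double mutant libraries and are not independent of each other. Against csf1rb-heterozygous mutants only 14 genes of the table passed the test, 8 of them lower in double mutants, and cybb ranked 6 of all genes by p. In single mutants the difference of cybb from control was -0.14 (95% interval -0.48 to 0.20, limma adjusted p = 0.759). In csf1rb-heterozygous mutants it was 0.071 (95% interval -0.26 to 0.41, limma adjusted p = 0.8502), an interval that spans 83.2% to 132.6% of the control level of CPM + 1. In whole brain RNA, fewer cells that carry a transcript and less of it per cell cannot be told apart, and this holds for each value here.

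The gene of the stabilising membrane partner, cyba, fell in csf1rb-heterozygous and double mutants against control. Its CPM was 11.96 and 6.71 in the control libraries, from 182 and 87 reads. Single mutants had 5.52, 4.39 and 5.90 CPM. The csf1rb-heterozygous mutants had 3.55, 2.93 and 3.89 CPM. Double mutants had 3.43, 3.23 and 3.01 CPM, from 54, 45 and 45 reads. Every mutant library was lower than both control libraries, the single mutants lay above the other mutants, and csf1rb-heterozygous and double mutant values overlapped. Group means were 9.34 ± 3.71 (SD, n = 2) in control, 5.27 ± 0.781 (SD, n = 3) in single mutant, 3.46 ± 0.488 (SD, n = 3) in csf1rb-heterozygous mutant and 3.23 ± 0.208 (SD, n = 3) in double mutant brains, or 56.4%, 37.0% and 34.5% of control in the mutants.

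Against control, cyba fell by 1.17 in csf1rb-heterozygous mutants (SE 0.229, limma adjusted p = 0.0482). In double mutants cyba fell by 1.24 against control (SE 0.229, limma adjusted p = 0.0274). In single mutants the difference from control was -0.68 (95% interval -1.18 to -0.18, limma adjusted p = 0.279). Double mutants differed from csf1rb-heterozygous mutants by -0.072 (95% interval -0.52 to 0.38, limma adjusted p = 0.9998). Both falls rest on few libraries. Of the 11 fits that each left out 1 library, 1 kept the fall in csf1rb-heterozygous mutants and 7 the fall in double mutants, which missed the threshold when 1 double mutant library was left out (limma adjusted p = 0.0660 to 0.0743). Without control replicate 1, the library with the highest cyba, the differences were -0.80 in csf1rb-heterozygous mutants (limma adjusted p = 0.218) and -0.87 in double mutants (limma adjusted p = 0.186). Whether cyba and cybb changed by different amounts was not tested.

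The GTPase gene rac2 did not pass the test in any of the 6 comparisons. The control libraries had 9.07 and 5.32 CPM. Single mutants had 4.06, 2.86 and 7.21 CPM. The csf1rb-heterozygous mutants had 4.25, 3.83 and 3.05 CPM. Double mutants had 1.08, 1.44 and 3.35 CPM, from 17, 20 and 50 reads. Double mutant and csf1rb-heterozygous values lay below both control libraries, and replicate 3 of the single mutants lay between the control libraries. Group means were 7.20 ± 2.65 (SD, n = 2), 4.71 ± 2.25 (SD, n = 3), 3.71 ± 0.609 (SD, n = 3) and 1.95 ± 1.22 (SD, n = 3), or 65.4%, 51.5% and 27.2% of control in single, csf1rb-heterozygous and double mutants. Against control, double mutants differed in rac2 by -1.51 (SE 0.369, limma adjusted p = 0.0789). The csf1rb-heterozygous mutants differed by -0.77 (limma adjusted p = 0.341) and the single mutants by -0.56 (limma adjusted p = 0.598), with the same SE. Without double mutant replicate 3, which had the most rac2 of that group, the difference in double mutants was -1.83 and passed (limma adjusted p = 0.0452), as it did with DESeq2 on the recovered reads (-1.89, adjusted p = 0.0121). Most alternatives did not pass. Of the 11 fits that each left out 1 library 1 passed, with limma adjusted p-values of up to 0.319, and of 13 other settings 2 passed.

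The 3 genes were chosen with earlier results of these data known, so the shares over all genes are given as background and test no enrichment. Of the 3 genes, 2 fell in double mutants against control, where 1.16% of all genes were called in either direction and 0.798% fell. In csf1rb-heterozygous mutants against control 1 of 3 fell, where 0.671% of all genes were called and 0.405% fell. Single mutants gave 0 calls of 3 with limma, where 0.472% of all genes were called and 0.175% fell. There 1 of 3 had an unadjusted p under 0.05 in limma, and edgeR and DESeq2 called 0. Between mutants, 1 of 3 fell in double against single mutants, where 0.943% of genes were called and 0.617% fell. Against csf1rb-heterozygous mutants 1 of 3 fell in double mutants, where 0.0847% were called and 0.0484% fell. Between csf1rb-heterozygous and single mutants limma called 0 of 3, where 0.187% of genes were called and 0.115% fell, 1 of 3 had an unadjusted p under 0.05, and edgeR and DESeq2 called 0. The values did not overlap with control for 3 of 3 genes in double mutants, where 36.4% of all genes did not overlap, for 2 of 3 in csf1rb-heterozygous mutants, where 34.4% did not, and for 1 of 3 in single mutants, where 29.2% did not. Between mutants they did not overlap for 2 of 3 genes in double against single mutants (16.2% of all genes), for 1 of 3 in double against csf1rb-heterozygous mutants (9.09%) and for 1 of 3 in csf1rb-heterozygous against single mutants (11.7%). Unadjusted p-values under 0.05, counted below beside lists with no call, were found in limma for 11.4%, 15.6% and 16.1% of all genes in single, csf1rb-heterozygous and double mutants against control. The shares were 11.3% in double against single mutants, 5.22% in double against csf1rb-heterozygous mutants and 6.28% in csf1rb-heterozygous against single mutants. The comparisons with control share its 2 libraries. These shares are limma's and are no background for calls by DESeq2, which called more genes. Against control DESeq2 called 285, 528 and 621 of all genes in single, csf1rb-heterozygous and double mutants. Limma called 78, 111 and 192 there. DESeq2 called 430 in double against single and 98 in double against csf1rb-heterozygous mutants, where limma called 156 and 14. In csf1rb-heterozygous against single mutants the counts were 126 and 31. In the authors' deposited table the log2 fold changes in double mutants against control were -1.21 for cybb (FDR 0.00516), -1.53 for cyba (FDR 0.0188) and -1.88 for rac2 (FDR 0.0898). In csf1rb-heterozygous mutants the authors' deposited table gave 0.076 for cybb (FDR 0.856), -1.43 for cyba (FDR 0.0428) and -0.96 for rac2 (FDR 0.349).

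**Figure D2:**
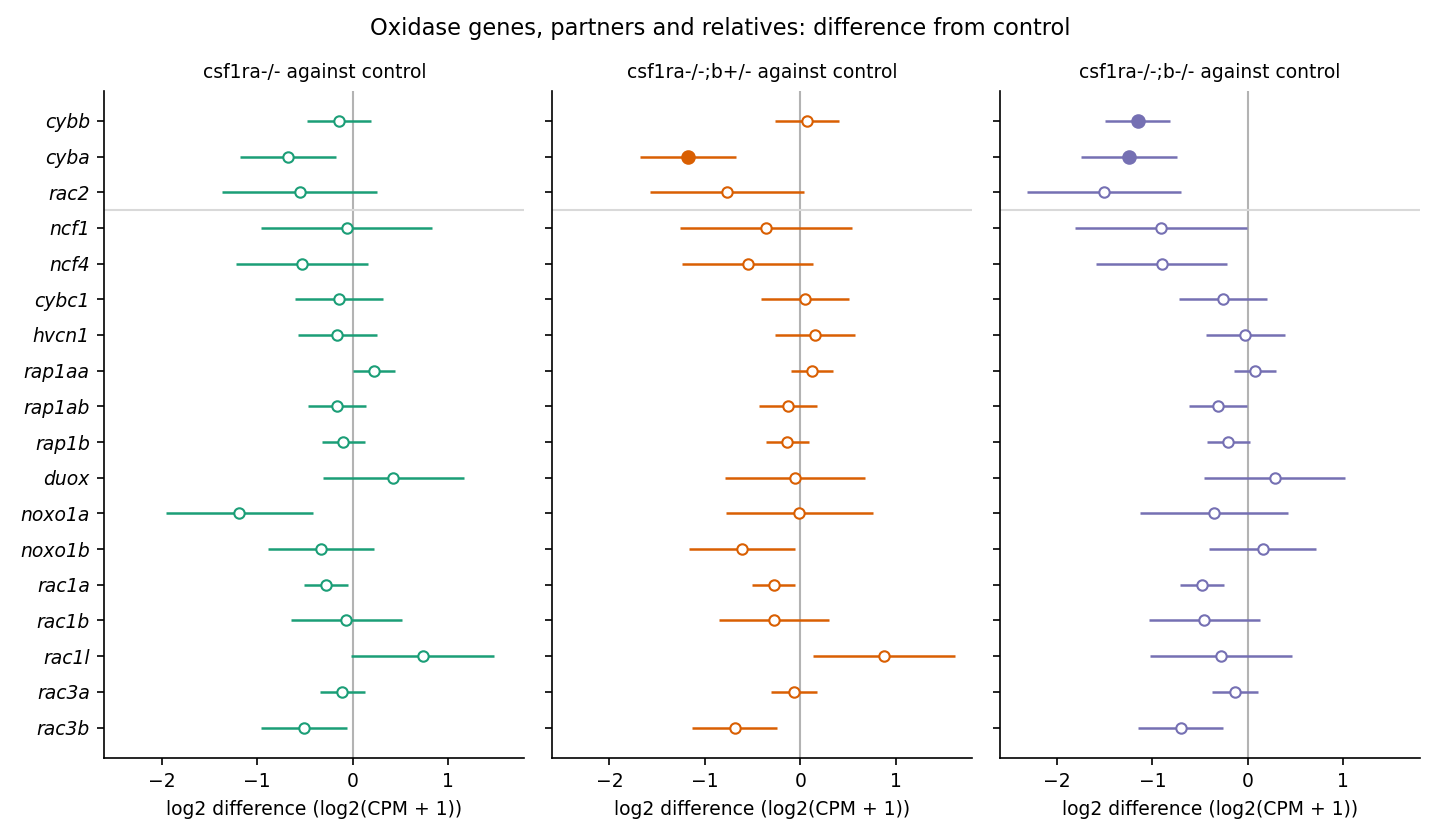
Log2 fold change of CPM + 1 against control in single, csf1rb-heterozygous and double mutants for cyba, cybb, rac2 and 15 partner and related genes. Bars are 95% intervals from limma and filled points passed an adjusted p of 0.05. In double mutants cybb lies at -1.16 and cyba at -1.24, both filled, and rac2 at -1.51 is open.

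The ratio of the catalytic to the stabilising subunit transcript was highest in csf1rb-heterozygous mutants. CPM of cybb divided by CPM of cyba was 2.12 and 3.91 in the control libraries. It was 4.68, 4.82 and 3.93 in single mutants. The csf1rb-heterozygous mutants had ratios of 7.86, 9.79 and 6.43. Double mutants had 2.63, 3.53 and 4.31. The 3 csf1rb-heterozygous libraries lay above the other 8, and control and double mutant values overlapped. The ratio of rac2 to cyba was 0.758 and 0.793 in the control libraries and 0.315 to 1.11 in double mutants, with 0.650 to 1.22 in the single and 0.783 to 1.31 in the csf1rb-heterozygous libraries, so these groups overlapped. The ratios were not tested, and a ratio describes the genes relative to each other, not which of them changed.

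**Figure D3:**
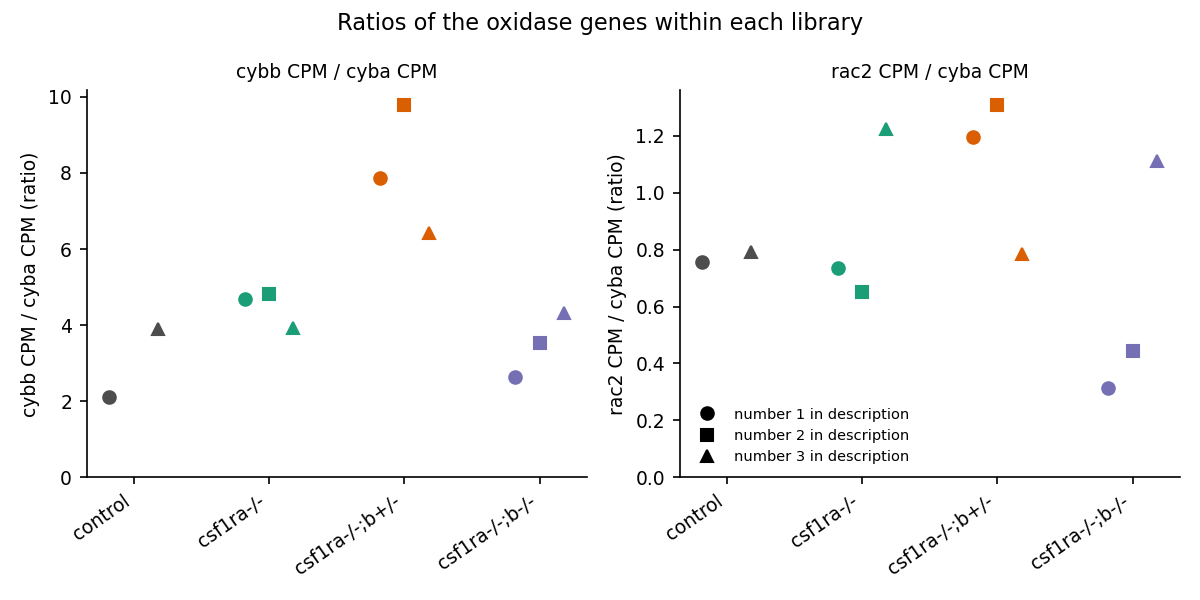
Ratio of cybb to cyba CPM and of rac2 to cyba CPM in each library by genotype. Points are libraries. The csf1rb-heterozygous libraries have cybb to cyba ratios of 6.43 to 9.79, above the 2.12 to 4.82 of the other 8 libraries.

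Of the cytosolic subunit genes ncf1 and ncf4, neither passed the test. The organiser gene ncf1 had 8.28 and 7.02 CPM in the control libraries and 4.25, 1.29 and 7.03 CPM in double mutants. These values overlapped, with a difference of -0.91 (SE 0.410, limma adjusted p = 0.305). The gene ncf4, whose product binds a membrane phosphoinositide, had 4.67 and 3.78 CPM in the control libraries. Mutants had 2.43, 3.00 and 2.403 CPM (single), 2.71, 3.63 and 1.62 CPM (csf1rb-heterozygous) and 1.59, 1.01 and 3.15 CPM (double) of ncf4. It lay below both control libraries in all 9 mutant libraries, with a difference of -0.90 in double mutants (SE 0.314, limma adjusted p = 0.198).

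The other partners were closer to control. The gene cybc1, whose product helps the membrane pair to be made in mammals, had 4.79 ± 0.663 CPM (SD, n = 2) in control and 3.82 ± 0.449 (SD, n = 3) in double mutant brains (-0.26, limma adjusted p = 0.568). The proton channel gene hvcn1, whose product carries the charge that balances the electrons, had 4.54 ± 0.0892 CPM (SD, n = 2) and 4.43 ± 0.181 (SD, n = 3), a difference of -0.028 (limma adjusted p = 0.962). The Rap genes rap1aa, rap1ab and rap1b, whose mammalian relative copurifies with the membrane pair, had limma adjusted p-values of 0.749, 0.301 and 0.354 in double mutants. Of these 7 partner genes, all listed, limma, edgeR and DESeq2 called 0 in each of the 6 comparisons. At an unadjusted p under 0.05 limma had 3 of 7 in double mutants against control, all lower, where 16.1% of all genes had one. It had 1 in single mutants against control, which was higher, and 1 in double against single mutants, which was lower. In the other 3 comparisons it had 0. Their median log2 fold change in double mutants was -0.26, against 0.014 over all genes.

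Relatives of the oxidase gave no call. Of 8 genes for other NADPH oxidases and their organisers, duox, noxo1a and noxo1b were listed and nox1, nox4, nox5, duoxa and noxa1 were not, which says only that they did not pass the authors' filter under those symbols. Group means in double mutants were 2.01 CPM for duox, the dual oxidase, and 2.51 and 2.98 CPM for the organiser genes noxo1a and noxo1b, with limma adjusted p-values against control of 0.720, 0.658 and 0.810. The control libraries had 0.920 and 2.08 CPM of duox, 4.995 and 2.16 CPM of noxo1a and 2.50 and 2.62 CPM of noxo1b. Single mutants had 1.22, 1.32 and 0.364 CPM of noxo1a, below both control libraries (limma adjusted p = 0.218, DESeq2 adjusted p = 0.0652). Limma, edgeR and DESeq2 called 0 of the 3 genes in all 6 comparisons. At an unadjusted p under 0.05, beside the shares of all genes given above, limma had 1 of 3 in each comparison except double mutant against control, where it had 0. The difference was a lower value in single and in csf1rb-heterozygous mutants against control. It was a higher value in double against each other mutant and in csf1rb-heterozygous against single mutants.

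The Rac paralogs, which in mammals can serve the same family of oxidases and shape the actin cytoskeleton, gave no call with limma. The gene rac1a had 60.4 and 61.6 CPM in the control libraries and 43.8, 42.9 and 43.4 CPM in double mutants. The groups did not overlap, and the difference of -0.48 did not pass (SE 0.105, limma adjusted p = 0.0534), while DESeq2 called it (adjusted p = 0.00352). The gene rac3b had 300.6 ± 6.77 CPM (SD, n = 2) in control and 185.5 ± 30.4 (SD, n = 3) in double mutants (-0.71, limma adjusted p = 0.130; DESeq2 adjusted p = 0.0354). The differences of rac3a, rac1b and rac1l in double mutants were -0.14, -0.46 and -0.28 (limma adjusted p = 0.568, 0.430 and 0.727). Limma and edgeR called 0 of the 5 paralogs in all 6 comparisons. At an unadjusted p under 0.05, beside the shares of all genes given above, limma had 2 in single, 3 in csf1rb-heterozygous and 2 in double mutants against control, 2 in double against single mutants, 1 in double against csf1rb-heterozygous mutants and 0 in the other comparison. DESeq2 called 2 in double mutants and 1, rac3b, in csf1rb-heterozygous mutants against control, beside 621 and 528 of all genes. How reads shared by Rac genes were counted is not stated in the labels, so levels of single Rac genes, rac2 included, are uncertain to that extent.

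Of 28 listed genes for Rac exchange factors, GTPase-activating proteins, inhibitors and effectors, 2 fell in double mutants, where 0.798% of all genes fell. Limma called 0 of the 28 in single and csf1rb-heterozygous mutants. At an unadjusted p under 0.05 limma had 6 and 8 of them in single and csf1rb-heterozygous mutants, beside 11.4% and 15.6% of all genes. There edgeR called 0 in both, and DESeq2 called 0 and 2, beside 285 and 528 of all genes. Both fallen genes act on the actin cytoskeleton of leukocytes. The gene coro1a, for an actin-binding coronin, fell from 23.5 ± 10.6 CPM (SD, n = 2) to 3.85 ± 0.735 (SD, n = 3), a log2 fold change of -2.28 (limma adjusted p = 0.00465). The gene wasb, for a Wiskott-Aldrich syndrome protein, fell from 6.17 ± 2.51 CPM (SD, n = 2) to 1.42 ± 0.420 (SD, n = 3), a change of -1.54 (limma adjusted p = 0.0308). Without control replicate 1 coro1a still passed (-1.82, limma adjusted p = 0.04497) and wasb did not (-1.17, limma adjusted p = 0.202). The median of the 28 genes was -0.12 in double mutants.

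Of 15 listed genes for receptors and kinases that lead to activation of the oxidase, 1 fell in csf1rb-heterozygous and 2 in double mutants. Over all genes 0.405% and 0.798% fell in these mutants. The gene fcer1gl, for a signalling chain of Fc receptors, fell from 12.8 ± 5.63 CPM (SD, n = 2) in control to 3.49 ± 1.07 (SD, n = 3) in csf1rb-heterozygous mutants (-1.58, limma adjusted p = 0.0479), and to 1.22 ± 0.617 (SD, n = 3) in double mutants (-2.61, limma adjusted p = 0.00251). The gene itgb2, for the common chain of leukocyte integrins, fell from 18.5 ± 9.95 CPM (SD, n = 2) to 4.69 ± 1.88 (SD, n = 3) in double mutants (-1.74, limma adjusted p = 0.0471). Without control replicate 1 fcer1gl passed in double mutants (-2.18, limma adjusted p = 0.0322) but not in csf1rb-heterozygous mutants (-1.15, limma adjusted p = 0.224), and itgb2 did not pass (-1.20, limma adjusted p = 0.263). The kinase genes lyn and hck had differences of -1.79 and -1.42 in double mutants and did not pass (limma adjusted p = 0.0702 and 0.146). The median of the 15 genes in double mutants was -0.25.

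Genes that handle the products of the oxidase gave no call with limma or edgeR. Of 23 listed genes for superoxide dismutases, catalase, peroxidases and related enzymes, limma called 0 in each of the 3 comparisons with control and edgeR called 0. DESeq2 called 0, 2 and 1 in single, csf1rb-heterozygous and double mutants, beside 285, 528 and 621 of all genes. At an unadjusted p under 0.05 limma had 7, 4 and 4 of 23, of which 5, 4 and 3 were higher in the mutants, beside 11.4%, 15.6% and 16.1% of all genes. The glutathione peroxidase gene gpx1b had 2.73 ± 0.509 CPM (SD, n = 2) in control and 5.91 ± 0.467 (SD, n = 3) in csf1rb-heterozygous mutants (0.90, limma adjusted p = 0.0664), and 5.37 ± 0.805 (SD, n = 3) in double mutants (0.77, limma adjusted p = 0.0855). The superoxide dismutase gene sod1 differed from control by 0.45 in double mutants (limma adjusted p = 0.113). The list's medians were 0.11, 0.11 and 0.16 in single, csf1rb-heterozygous and double mutants.

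Genes that mark microglia and macrophages were lower in the mutants than in control, in csf1rb-heterozygous mutants too, where cybb was not. Their part in the falls of cyba and cybb was not tested. Of 38 symbols of such genes, none of them cyba, cybb or rac2, 31 were listed. The 31 include the targeted genes csf1ra and csf1rb, so sums, medians and counts of this list are not independent of the genotypes. The summed CPM of the 31 genes was 79.5% and 120.5% of the control mean in the 2 control libraries and 56.1% to 73.9% in single mutants. It was 36.3% to 38.95% and 27.7% to 42.3% in the csf1rb-heterozygous and double mutants. Against control 25 of the 31 genes fell in double mutants, with a median log2 fold change of -2.37, and 15 in csf1rb-heterozygous mutants, with a median of -1.65. In single mutants 2 fell, with a median of -0.76. Over all genes 0.798%, 0.405% and 0.175% fell in double, csf1rb-heterozygous and single mutants. Leaving out control replicate 1, the counts in csf1rb-heterozygous and double mutants were 3 and 10. The shares above come from the fit of all libraries and do not apply to that fit. Over all settings 48 to 528 and 74 to 621 genes were called in either direction in these mutants. The chemokine gene ccl34b.1 fell from 24.3 to 0.932 CPM in double mutants (-3.74, limma adjusted p = 0.000202), and cd74a, for the invariant chain of antigen presentation, from 259.6 to 25.2 CPM (-3.28, limma adjusted p = 0.000538). The lysosomal gene hexb and the scavenger receptor gene mrc1a were not lower in double mutants, with differences of 0.24 and 0.51 (limma adjusted p = 0.373 and 0.524).

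Set beside the marker genes, cybb differed from control by less than most of them in csf1rb-heterozygous mutants. There 29 of the 31 marker genes, which include csf1ra and csf1rb, had a lower log2 fold change than cybb. For cyba 23 and for rac2 27 of the 31 had a lower one. In double mutants 26, 26 and 24 had a lower one than cybb, cyba and rac2. Between csf1rb-heterozygous and double mutants 0 of the 31 marker genes passed limma's test, with a median of -0.54, while cybb fell. Most markers were lower in double mutants too: 28 of the 31 had a log2 fold change below 0, beside 48.5% of all genes. The values of 15 of the 31 did not overlap, beside 9.09% of all genes. At an unadjusted p under 0.05 limma had 11 of the 31, 10 of them lower in double mutants, beside 5.22% of all genes. EdgeR called 0 and DESeq2 5, where DESeq2 called 98 of all genes. Of the 31, 5 had a lower log2 fold change than cybb. The scale of log2(CPM + 1) understates changes of genes with few reads, so these ranks also depend on the level of each gene. The macrophage gene mpeg1.1 had 18.5 and 14.9 CPM in the control libraries. Mutants had 9.33, 5.49 and 12.2 CPM (single), 9.95, 5.44 and 4.93 CPM (csf1rb-heterozygous) and 1.65, 1.01 and 5.02 CPM (double). The csf1rb-heterozygous and double mutant values overlapped, and replicate 3 of the double mutants was the highest of its group for mpeg1.1, cybb and rac2. For cyba that library was the lowest of its group, with 3.01 CPM against 3.43 and 3.23 CPM.

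**Figure D4:**
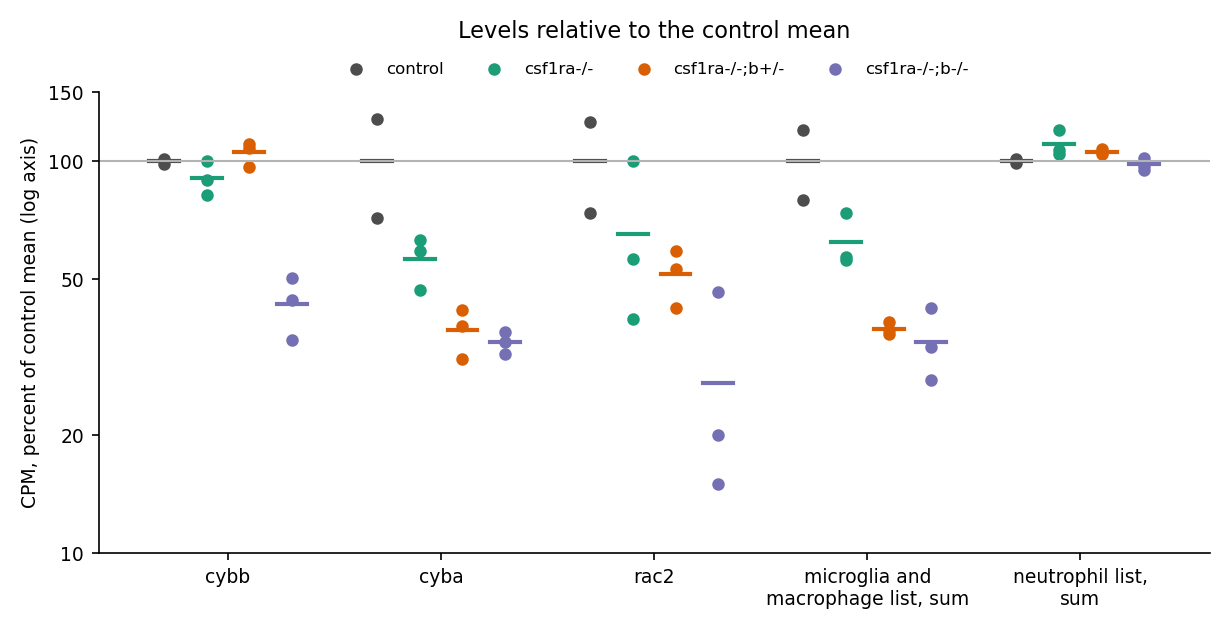
Level in each library as a percent of the control mean, on a log axis, for cybb, cyba, rac2 and for the summed CPM of the microglia and macrophage list and of the neutrophil list. Points are libraries. In csf1rb-heterozygous mutants the microglia and macrophage sum is at 36.3% to 38.95% and in double mutants at 27.7% to 42.3%. The neutrophil sum, to which nccrp1, cebpa and padi2 gave the most, is at 95.3% to 120.6% in all mutants.

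Markers of neutrophils, which also carry the oxidase, gave no call with limma. Of 17 neutrophil symbols 8 were listed, among them the defining genes mpx and lyz. The myeloperoxidase gene mpx had 1.97 and 2.01 CPM in the control libraries, and mutants had 3.00, 2.93 and 2.69 CPM (single), 2.78, 1.81 and 4.99 CPM (csf1rb-heterozygous) and 1.40, 4.38 and 3.48 CPM (double). The lysozyme gene lyz had 0.657 and 0.154 CPM in the control libraries, and mutants had 1.87, 3.15 and 3.93 CPM (single), 2.92, 0.976 and 1.75 CPM (csf1rb-heterozygous) and 0.508, 0.863 and 0.134 CPM (double). Single and csf1rb-heterozygous values of lyz lay above control, with differences of 1.49 (limma adjusted p = 0.102) and 1.00 (limma adjusted p = 0.209). The list's medians against control were 0.33 (single), 0.39 (csf1rb-heterozygous) and 0.0997 (double). In these mutants 6, 4 and 1 of the 8 genes did not overlap with control, beside 29.2%, 34.4% and 36.4% of all genes. The summed CPM of the list was 104.6% to 120.6% of the control mean in single, 104.2% to 107.5% in csf1rb-heterozygous and 95.3% to 102.1% in double mutants, a sum to which nccrp1, cebpa and padi2, at 14.9 to 44.7 CPM, gave the most. Limma and edgeR called 0 of the 8 genes in all 6 comparisons. DESeq2 called 1 in single mutants against control and 1 in double against single mutants, beside 285 and 430 of all genes. At an unadjusted p under 0.05 limma had 3, 2 and 1 of 8 against control in the single, csf1rb-heterozygous and double mutants, beside 11.4%, 15.6% and 16.1% of all genes. It had 2, 2 and 0 of 8 in double against single, double against csf1rb-heterozygous and csf1rb-heterozygous against single mutants, beside 11.3%, 5.22% and 6.28%. Of 25 symbols of lymphocytes and NK cells 7 were listed, with sums of 125.4% to 256.4% in single, 81.2% to 117.8% in csf1rb-heterozygous and 72.7% to 259.6% in double mutants, and rac2 is expressed by such cells in mammals. The immunoglobulin gene ighm, labelled ighv1-4 as deposited, took 19.4 CPM in single mutant replicate 3 and 40.2 CPM in double mutant replicate 3, and 0.231 to 4.38 CPM elsewhere. The list's medians against control were 0.21 (single), -0.21 (csf1rb-heterozygous) and -0.55 (double), with 5 of 7 genes below 0 in double mutants. In double against single mutants 1 of 7 fell, where 0.617% of all genes fell. At an unadjusted p under 0.05 limma had 3 of 7 in double mutants against control, all lower, beside 16.1% of all genes. It had 1, which was higher, in single and 0 in csf1rb-heterozygous mutants against control. In double against single mutants it had 5, all lower, beside 11.3%. Of these 7 genes DESeq2 called 2 in double mutants against control and 1 in double against single mutants, and edgeR 0. Of all genes DESeq2 called 621 and 430 there. Sums of 9 red blood cell genes were 167.4% to 287.7% of control in single, 106.3% to 163.1% in csf1rb-heterozygous and 125.3% to 183.5% in double mutants. Limma called 0 of the 9 against control. At an unadjusted p under 0.05 it had 9, all higher, in single mutants, beside 11.4% of all genes. It had 3 and 2 in csf1rb-heterozygous and double mutants, beside 15.6% and 16.1%, with 2 higher in each. Against single mutants 2 fell in csf1rb-heterozygous and 1 in double mutants, where 0.115% and 0.617% of all genes fell. Sums of 4 thrombocyte genes were 155.8% to 167.4% of control in single, 110.8% to 159.5% in csf1rb-heterozygous and 82.3% to 128.2% in double mutants. The part of all these cells in the values of cyba, cybb and rac2 was not tested.

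The genes whose profile over the 11 libraries was nearest to each oxidase gene differed between the 3. Likeness was measured as the root mean square difference between centred profiles of log2(CPM + 1), over 16526 genes, in which the libraries are shared by all profiles. Nearest to cybb were rnaset2l, for a ribonuclease, at 0.211, the genes si:ch211-93g21.1 and si:ch73-281n10.2, known by clone names only, at 0.221 and 0.235, a further gene of that kind at 0.257, and cldn5b, for a tight junction claudin of endothelium, at 0.275. Because these genes were picked for their likeness over the same libraries, their differences between groups are given without a test. Mean CPM of si:ch211-93g21.1 was 4.23 in control, 3.40 in single, 6.06 in csf1rb-heterozygous and 1.73 in double mutant brains. Nearest to cyba were ehbp1l1a at 0.193, ponzr1 at 0.202, zgc:153631 at 0.213, plek, the pleckstrin gene, at 0.213 and s100v2 at 0.217. Mean CPM of ehbp1l1a was 8.70 in control, 5.03 in single, 3.83 in csf1rb-heterozygous and 4.001 in double mutant brains. Nearest to rac2 were si:ch211-147j13.3 at 0.160, the leukocyte common antigen gene ptprc at 0.1799, abcb3l1 at 0.217, hcls1, for a cytoskeletal protein of blood cells, at 0.221 and si:dkeyp-68b7.12 at 0.223. Mean CPM of ptprc, which is also on the microglia and macrophage list, was 17.2 in control, 12.1 in single, 9.78 in csf1rb-heterozygous and 5.82 in double mutant brains. The oxidase genes lay further from each other than from these nearest genes. Their distances were 0.551 for cyba and cybb, 0.425 for cyba and rac2 and 0.426 for cybb and rac2. By nearness to rac2, cyba ranked 141 and cybb 143 of the 16526 genes. By nearness to cybb, rac2 ranked 407 and cyba 6760. By nearness to cyba, rac2 ranked 1570 and cybb 9018. A flat profile lay at 0.497, 0.525 and 0.639 from cyba, cybb and rac2.

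**Figure D5:**
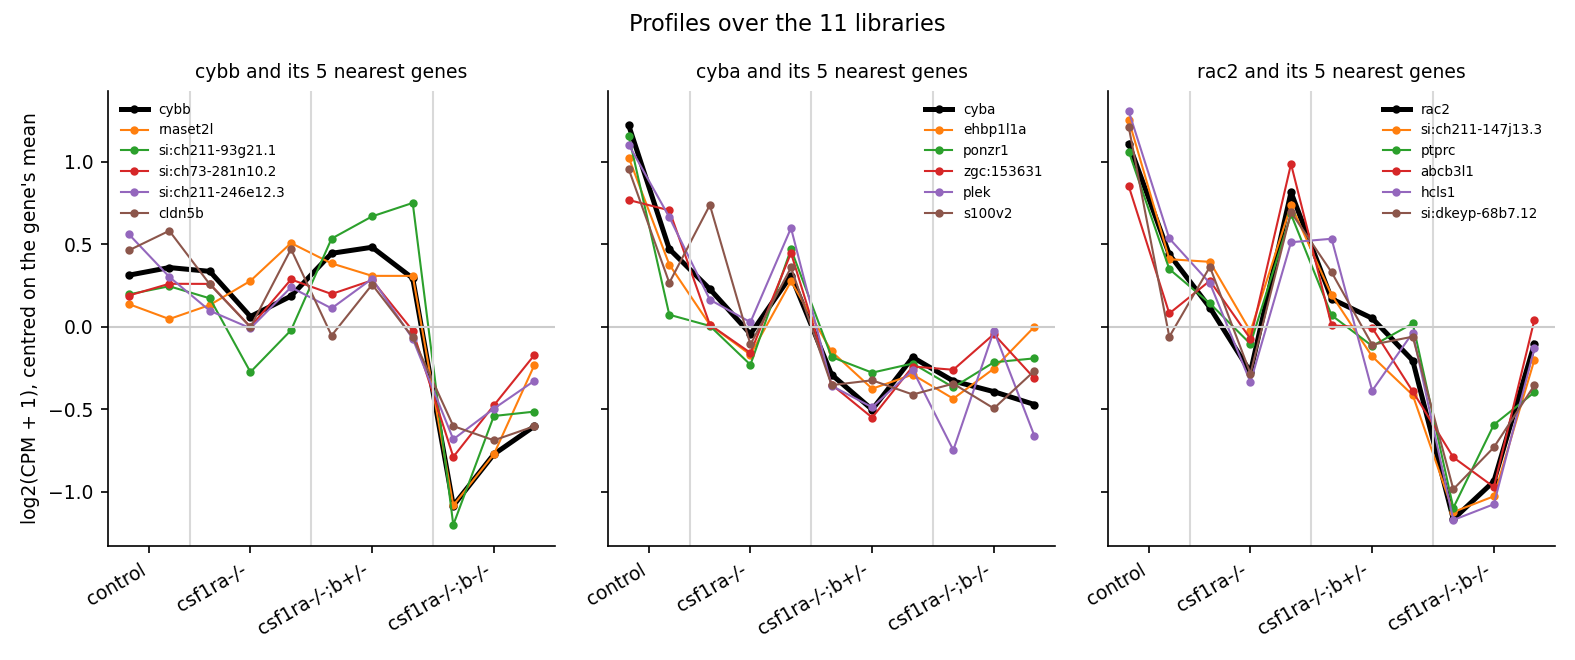
Profiles of log2(CPM + 1), centred on the mean over the 11 libraries, of cyba, cybb and rac2 and of the 5 genes nearest to each. Each line is a gene and each position a library, grouped by genotype. In the cybb panel the double mutant libraries are the lowest for cybb, and in the cyba panel the control libraries are the highest for cyba.

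Among listed genes that lie beside the 3 on their chromosomes, limma called apol alone. None of the 3 genes lies on a chromosome that holds csf1ra or csf1rb in RefSeq's annotation of GRCz12tu, which was used for gene order alone. Of the 10 protein-coding genes nearest to cybb 8 were listed, and limma called 0 of their 48 tests over the 6 comparisons, with a smallest adjusted p of 0.168 and 7 at an unadjusted p under 0.05. Of those nearest to cyba 6 were listed, and limma called 0 of 36 tests, with a smallest adjusted p of 0.257 and 4 at an unadjusted p under 0.05. For both sets edgeR and DESeq2 called 0. Of those nearest to rac2 5 were listed, and limma called 3 of 30 tests, all of apol, an apolipoprotein L gene, which fell in double mutants against each other group. Against control, single and csf1rb-heterozygous mutants 0.798%, 0.617% and 0.0484% of all genes fell in double mutants. The mean of apol was 10.1 CPM in control and 1.25 CPM in double mutants (-2.26, limma adjusted p = 0.00161). Of the same 30 tests 10 had an unadjusted p under 0.05 in limma, and edgeR called 3 and DESeq2 5. The shares of all genes with such p-values are given above for each comparison.

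Within libraries that share a description number, double mutants were lower than control in cybb by 1.40 and 0.96 on the log2 scale for numbers 1 and 3, the numbers that control libraries carry. The same differences were -1.55 and -0.94 for cyba and -2.28 and -0.54 for rac2. Between double and csf1rb-heterozygous mutants cybb differed by -1.53, -1.25 and -0.90 for numbers 1, 2 and 3, and between double and single mutants by -1.42, -0.83 and -0.79. Between csf1rb-heterozygous mutants and control it differed by 0.13 and -0.065 for numbers 1 and 3. With the libraries numbered 1 and 3 alone, an alternative chosen after seeing the data, cybb differed by -1.21 between double and csf1rb-heterozygous mutants and no longer passed (limma adjusted p = 0.0766).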

How the data were processed

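RNA-seq of 11 whole-brain libraries in 4 genotype groups was analysed. Per the labels' protocols, brains were kept in trypsin on ice, frozen, and extracted with Trizol, and pre-amplified, Tn5-cut cDNA was sequenced as single reads of 50 nucleotides. HISAT2, edgeR and genome build GRCz10 are named per the submitters' processing notes. The read counter, its use of strand and the gene models were not given in the sources used here. As deposited, the signal is CPM scaled per library by the authors, per the file headers and the values, and in this table no gene was above 1 CPM in fewer than 3 libraries. All values were whole multiples of 1 read within 0.001 reads (100% whole), so reads were recovered for count tests and for exact Poisson 95% intervals, which take in counting error alone, because PCR copies were not told apart by molecular identifiers. The authors' deposited log2 fold changes and FDR (adjusted p-values) were copied for comparison only.

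Values were tested as log2(CPM + 1) with limma 3.58.1 (R 4.3.3), moderated with a mean-variance trend, two-sided, in 1 model of the 4 groups with no block, adjusted over 16536 genes. This scale understates changes of genes with few reads. Alternatives used edgeR 4.0.16 (quasi-likelihood) and DESeq2 1.42.0 on the recovered reads, other pseudocounts, scalings, filters, blocks and left-out libraries. The test was also run on simulated reads, with the same spread beyond counting error for every gene and no pairing of libraries. That setting differs from these data, so it cannot show how well the calls of cyba, cybb and rac2 hold. The 3 genes and the 14 gene lists (173 entries measured for 234 symbols) were chosen with earlier results of these data known. Named are the 3 genes, csf1ra, csf1rb, the listed partners, relatives and Rac paralogs, genes of the other lists taken from the 4 with the smallest adjusted p against control, and the 5 nearest profiles per gene (mean log2(CPM + 1) of 1 or more). Further, mpeg1.1, mpx, nccrp1, cebpa, ighm, hexb, mrc1a and apol were named outside that rule after their values were seen, and neighbours were added then too. Symbols not in the table were sought by gene ID or through RefSeq synonyms. Of the genes named here, cybc1, ighm and apol were found so, labelled zgc:91940, ighv1-4 and si:ch73-233k15.2 as deposited. RefSeq's GRCz12tu gave gene order only.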

Additional observations from a re-analysis of the deposited data

How the results depend on the processing

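The falls of cybb in double mutants against control and against single mutants passed in all 11 fits that left out 1 library (-1.26 to -1.02 and -1.12 to -0.88) and under the 13 other settings (largest adjusted p 0.0406 and 0.0486). Its fall against csf1rb-heterozygous mutants passed in all 11 such fits (-1.34 to -1.09) but not with the libraries numbered 1 and 3 alone (-1.21), with these and a replicate block (-1.21, adjusted p = 0.0776) or with edgeR on these (-1.27, adjusted p = 0.0985), alternatives chosen after seeing the data. The fall of cyba in csf1rb-heterozygous mutants was lost with pseudocounts of 0.5 (-1.27) and 0.1 (-1.36), a mean CPM of at least 2 (-1.17), no scaling factor (-1.14), the 2 compared groups only (-1.17), a replicate block by description number (-1.11), and the libraries numbered 1 and 3 with limma (-1.08), with a block (-1.08) and with edgeR (-1.34); leaving out 1 library gave -1.55 to -0.80, with 1 of 11 fits passing. Its fall in double mutants was lost with the 2 compared groups only (-1.24) and the libraries numbered 1 and 3 (-1.25), and ranged from -1.62 to -0.87 without 1 library, with 7 of 11 fits passing. The difference of rac2 in double mutants passed with DESeq2 (-1.89) and a replicate block by title number (-1.68), and ranged from -1.84 to -1.17 without 1 library. That of rac2 between csf1rb-heterozygous and single mutants, not called, ranged from -0.46 to 0.085 and changed sign without single mutant replicate 3. The cause of these changes was not tested. Same-numbered libraries deviated together at a correlation over 0.1 in 8 of 15 pairs by title and 9 of 15 by description. By either number the median correlation was 0.160 for pairs of the same number and -0.063 for pairs of different numbers. By title and description 10 and 11 of 11 libraries correlated best with their own number, a hint of pairing from the data and not the design. The labels name no shared animal or litter, so the main fit had no block, and its p-values do not take such pairing into account.

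Genes called in single, csf1rb-heterozygous and double mutants against control numbered 78, 111 and 192, with 29 to 285, 48 to 528 and 74 to 621 over the settings. Between mutants they numbered 31, 156 and 14 for csf1rb-heterozygous against single, double against single and double against csf1rb-heterozygous mutants, with 4 to 126, 66 to 430 and 3 to 98. DESeq2 gave the most in each of the 6. Fallen genes of the microglia and macrophage list against control ranged from 0 to 4, 3 to 25 and 10 to 28 in single, csf1rb-heterozygous and double mutants. Counting error is largest for rac2, with 17 to 138 reads per library. The control libraries differed in rac2 and in cyba by more than their counting intervals.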
